A study of Mus musculus with 4 samples.

Results

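The genes described here are those of the mouse major histocompatibility complex (MHC, named H2 in the mouse) together with the genes that supply peptides to MHC molecules. They were taken as every gene name on the array that starts with H2-, plus B2m, Cd74, Ciita, Nlrc5, Tap1, Tap2, Tapbp, Psmb8, Psmb9 and Psmb10. The rule found 52 genes, 42 of them with an H2- name, among 37074 gene names, and these 52 were covered by 87 probes. The study measured total RNA from kidneys of ICR mice, an outbred strain, on 1-colour Agilent arrays. There were 4 groups of 1 array each: vancomycin injected at ZT14, saline injected at ZT14, vancomycin injected at ZT2 and saline injected at ZT2. ZT, zeitgeber time, is clock time set by the animals' lighting, by convention early light for ZT2 and early dark for ZT14 under equal light and dark, and in all 4 groups the kidney was taken 1 day after the injection. The labels do not say whether an array stands for 1 mouse or a pool, they give no dose, age or sex, and the H2 alleles of the animals were not measured.

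MHC class I molecules are made of a heavy chain, such as H2-K1 or H2-D1, and the shared light chain B2m, and they sit on nearly all nucleated cells. Proteasomes cut proteins inside the cell, the TAP transporter carries the peptides into the endoplasmic reticulum, and tapasin (Tapbp) helps to load them. Class II molecules pair an alpha with a beta chain (H2-Aa with H2-Ab1, H2-Ea with H2-Eb1), are guided by the invariant chain Cd74, exchange peptides with the help of H2-DM and are found mainly on dendritic cells, macrophages and B cells. The chains that bind peptide are among the most variable genes of the mouse, and several laboratory haplotypes make no E alpha chain.

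Values are log2 signals relative to the 75th percentile of the same array, so 0 is a signal at that percentile. They are set side by side between arrays for 1 probe, never between probes, and a gene is given by its brightest probe. A probe was counted as measured on an array where the scanner software marked it well above background. Of the 52 genes, 39 were measured on at least 1 array, 36 on all 4 and 13 on none. The 13 were H2-M1, H2-M5, H2-M9, H2-M10.1 to H2-M10.6, H2-T18, H2-DMb2, H2-Eb2 and H2-Ea-ps. Between 60.6% and 64.7% of all spots were well above background on each array, no spot was saturated, and none of the 348 spots of the 87 probes was marked as uneven or as an outlier. Probes printed on 10 or more spots had a median SD over spots of 0.04 to 0.05 (log2) on each array, which is spotting error and not the spread between animals. Both ZT14 arrays lay on 1 slide and both ZT2 arrays on another, so injection time and slide cannot be told apart. Saline and vancomycin held the same positions on both slides, so treatment and array position cannot be told apart either.

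Several class I chains are so alike that their probes can share sequence. The next 3 probes, shown because their genes are described separately below, carry a common run of bases in the stretch that spans the membrane, given in capitals. The first 2 share 31 bases, and the H2-K1 probe shares 29 bases with each of them.
H2-T23 probe: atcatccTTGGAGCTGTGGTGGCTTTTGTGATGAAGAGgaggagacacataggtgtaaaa
H2-L probe: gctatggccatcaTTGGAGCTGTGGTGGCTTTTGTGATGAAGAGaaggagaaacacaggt
H2-K1 second probe: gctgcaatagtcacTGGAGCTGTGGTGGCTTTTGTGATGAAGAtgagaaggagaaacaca
The file headers place them on chromosome 17 of the mm9 build, at chr17:36167338-36167574 on the minus strand over a span of 237 bases, at chr17:35403191-35403250 on the plus strand and at chr17:34133984-34134043 on the minus strand. The H2-Q8 probe shares 24 bases with the H2-L probe. Signals of these probes cannot be assigned to 1 gene alone, and of the 32 class I probes that were measured, 4 list RefSeq transcripts of more than 1 gene. These are 3 H2-Q7 probes, which also list H2-Q9, and the H2-Q8 probe, which also lists H2-Q6. Both H2-L probes list transcripts of H2-D1, and the H2-T9 probe lists a transcript of H2-T22.

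With vancomycin at ZT14, class I heavy chains were lower than with saline at ZT14 as a group. Of 39 measured MHC and antigen processing genes, 13 were 2-fold or more lower, where 2.88% of all gene entries were, and 0 were 2-fold or more higher, where 1.62% were. After normexp correction, a model-based background subtraction, 8 were 2-fold or more lower. The median log2 difference of the 39 genes was -0.63, against 0.01 over all gene entries. Of the 13, 10 were class I chains and 3 were class II genes. At ZT2 the count was 1 of 37 lower, where 3.89% of all gene entries were, and 3 of 37 higher, where 1.98% were, and the median was -0.05. With the mean over probes in place of the brightest probe, 3 were 2-fold or more lower at ZT2, and with no filter on dim probes 2 were. Each difference sets 1 array against 1 array and has no test.

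**Figure D1:**
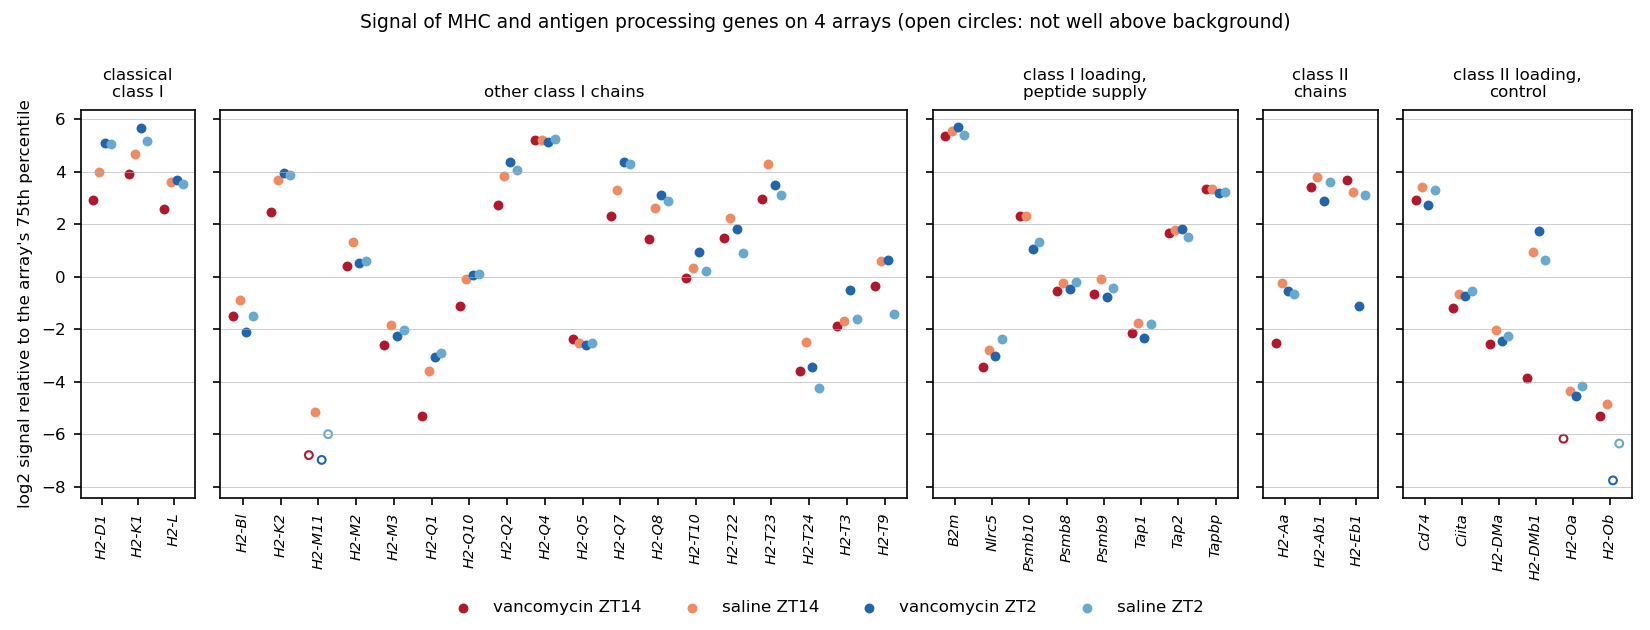
Log2 signal relative to the 75th percentile of each array for the measured genes other than H2-Ke6, grouped by role along the x axis, with 1 point per array (n = 1 per group), filled where the probe was well above background and open where it was not. Levels of different genes come from different probes and are not comparable. H2-DMb1 stands low on the vancomycin ZT14 array, at -3.85, and H2-Eb1 on the vancomycin ZT2 array, at -1.13.

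H2-D1, a classical class I heavy chain that presents peptides to CD8 T cells, had 2.93 with vancomycin and 3.99 with saline at ZT14, and 5.09 with vancomycin and 5.06 with saline at ZT2. Its difference was -1.06 at ZT14 and 0.03 at ZT2. H2-L, named as another classical chain, had 2.58 with vancomycin and 3.63 with saline at ZT14. At ZT2 it had 3.69 with vancomycin and 3.53 with saline. Both H2-L probes list transcripts of H2-D1, so H2-L and H2-D1 may not count separate genes. For both entries the vancomycin ZT14 array was the lowest of the 4, and the ZT2 arrays lay close together. H2-K1 followed the same direction at ZT14 with a smaller size: 3.94 with vancomycin and 4.69 with saline at ZT14, and 5.67 with vancomycin and 5.16 with saline at ZT2. Its second probe, which holds the shared run shown above, gave -1.02 at ZT14 and 0.37 at ZT2, against -0.75 and 0.50 for the first.

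Among the chains outside the classical group, H2-K2 had 2.46 with vancomycin and 3.69 with saline at ZT14, and 3.97 with vancomycin and 3.90 with saline at ZT2. H2-Q2 had 2.72 with vancomycin and 3.85 with saline at ZT14, and 4.38 with vancomycin and 4.05 with saline at ZT2. H2-Q7, from the Qa-2 family of class I molecules, had 2.30 with vancomycin and 3.32 with saline at ZT14, and 4.38 with vancomycin and 4.31 with saline at ZT2. All 3 were 2-fold or more lower with vancomycin at ZT14 and 0.07 to 0.32 above saline at ZT2. H2-Q8 had 1.44 with vancomycin and 2.63 with saline at ZT14, and 3.13 with vancomycin and 2.88 with saline at ZT2. H2-Q1 had -5.30 with vancomycin and -3.59 with saline at ZT14, and -3.07 with vancomycin and -2.89 with saline at ZT2. Its log2 difference of -1.71 at ZT14 was the largest among the class I chains, and it was -0.56 after normexp correction.

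H2-T23, known as Qa-1, presents leader peptides of other class I chains to receptors on NK and T cells. It had 2.98 with vancomycin and 4.31 with saline at ZT14, and 3.50 with vancomycin and 3.12 with saline at ZT2. The difference of -1.33 at ZT14 stood beside -0.29 for a second H2-T23 probe, which lists a transcript of H2-T-ps. H2-T24 had -3.59 with vancomycin and -2.47 with saline at ZT14, and -3.43 with vancomycin and -4.26 with saline at ZT2. After normexp correction its difference at ZT14 was -0.62. H2-Q10, a secreted class I molecule known from liver, had -1.10 with vancomycin and -0.08 with saline at ZT14, and 0.09 with vancomycin and 0.10 with saline at ZT2. Its probes went in opposite directions, as described further on, and their mean gave 0.42 at ZT14.

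Over the 21 class I chains measured at ZT14, the median log2 difference was -0.96, with a range of -1.71 to 0.15, and 19 were below 0. The other 2, H2-Q4 and H2-Q5, differed by 0.03 and 0.15 at ZT14 and by -0.11 and -0.08 at ZT2. H2-Q4 had 5.23, 5.20, 5.13 and 5.24 on the vancomycin ZT14, saline ZT14, vancomycin ZT2 and saline ZT2 arrays, a range of 0.11. Of the 20 class I chains measured on all arrays, 14 had their lowest value on the vancomycin ZT14 array, against 22.5% of all gene entries. Chains whose probes share 15 or more bases were also counted once, a step added after the values were seen. This left 6 in place of 10 class I chains at 2-fold or more lower. H2-D1 and H2-L, whose probes list the same gene, still counted apart in it.

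At ZT2 the median of the 20 measured class I chains was 0.12. Of them 2 were 2-fold or more higher, where 1.98% of gene entries were, and 0 lower, where 3.89% were. H2-T9 had -0.35 with vancomycin and 0.61 with saline at ZT14, and 0.64 with vancomycin and -1.40 with saline at ZT2, a difference of 2.04 at ZT2. It was the saline ZT2 array that stood lowest. H2-T3, the thymus leukaemia antigen known from intestinal epithelium, had -1.86 with vancomycin and -1.70 with saline at ZT14. At ZT2 it had -0.52 with vancomycin and -1.62 with saline. These values rest on 1 of 4 H2-T3 probes, and the others were not well above background on any array. The related H2-T22 and H2-T10 differed by 0.93 and 0.69 at ZT2, and by -0.78 and -0.38 at ZT14. Their close likeness to H2-T9 means that these probes may not count separate genes.

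**Figure D2:**
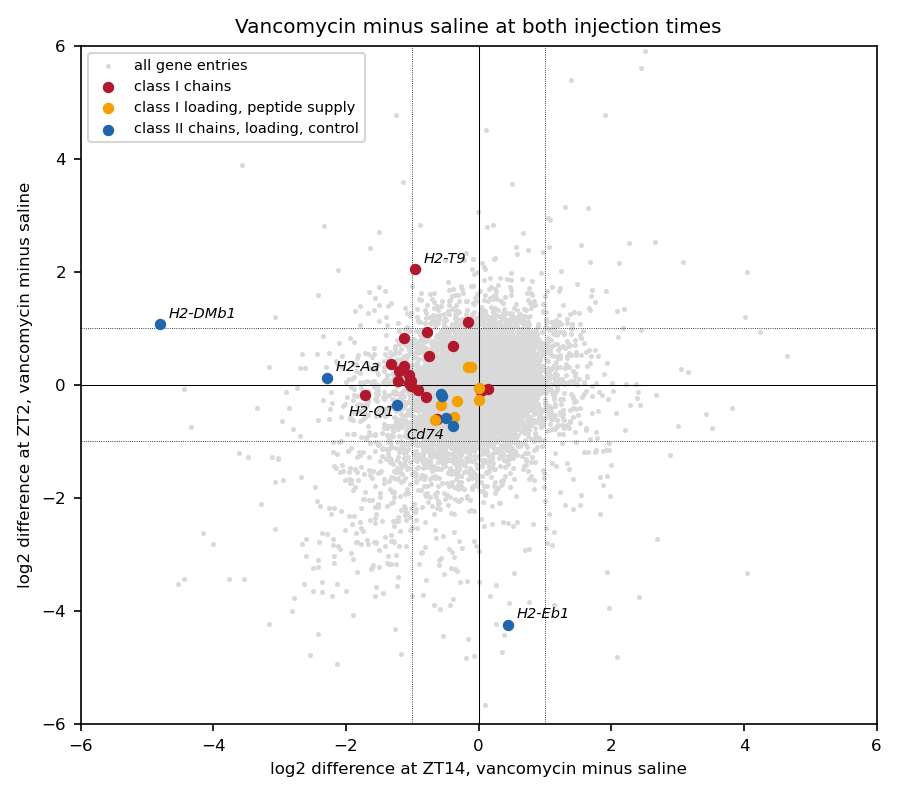
Vancomycin minus saline log2 difference at ZT14 (x axis) against that at ZT2 (y axis), 1 array against 1 array, with 1 point per gene, grey for all gene entries and coloured by role for the MHC and antigen processing genes measured at both times, and dotted lines at the 2-fold rule. Class I chains lie mostly left of 0 (median -0.96 at ZT14) and around 0 on the y axis (median 0.12 at ZT2), the peptide supply genes lie inside the 2-fold lines, and H2-DMb1 and H2-Eb1 lie far out along different axes.

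The genes that build the rest of the class I pathway did not share the size of the heavy chain differences. None of the 8 was 2-fold or more apart at either time, and their median differences were -0.24 at ZT14 and -0.28 at ZT2. B2m, the light chain of all class I molecules, had 5.39 with vancomycin and 5.55 with saline at ZT14, and 5.70 with vancomycin and 5.39 with saline at ZT2. Tapbp had 3.34 with vancomycin and 3.33 with saline at ZT14, and 3.20 with vancomycin and 3.25 with saline at ZT2. B2m and Tapbp thus differed by -0.16 and 0.01 at ZT14, where H2-D1 differed by -1.06.

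Tap1 and Tap2 together form the peptide transporter. Tap1 had -2.15 with vancomycin and -1.78 with saline at ZT14, and -2.35 with vancomycin and -1.78 with saline at ZT2. Tap2 had 1.67 with vancomycin and 1.78 with saline at ZT14, and 1.84 with vancomycin and 1.52 with saline at ZT2. Tap1 was lower with vancomycin at both times, and Tap2 differed in opposite directions. Psmb8, Psmb9 and Psmb10 are the subunits that turn a proteasome into an immunoproteasome. Psmb8 had -0.56 with vancomycin and -0.24 with saline at ZT14, and -0.48 with vancomycin and -0.19 with saline at ZT2. Psmb9 had -0.64 with vancomycin and -0.08 with saline at ZT14, and -0.79 with vancomycin and -0.43 with saline at ZT2. Both were lower with vancomycin at each time, by 0.29 to 0.56. Psmb10 had 2.31 with vancomycin and 2.30 with saline at ZT14, and 1.07 with vancomycin and 1.34 with saline at ZT2.

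Nlrc5, the transactivator of class I genes, had -3.44 with vancomycin and -2.79 with saline at ZT14, and -3.01 with vancomycin and -2.38 with saline at ZT2. It was lower with vancomycin by 0.65 at ZT14 and 0.63 at ZT2, and the mean with its dimmer second probe gave 0.01 at ZT14. Psmb5, Psmb6 and Psmb7, which the immunoproteasome subunits replace, differed by -0.23, 0.01 and -0.02 at ZT14 and by -0.24, -0.01 and -0.22 at ZT2. Of 24 further genes of the class I pathway, 23 were measured, with medians of -0.04 at ZT14 and -0.03 at ZT2. Erap1, which trims peptides, differed by 0.23 at ZT14 and 0.24 at ZT2, and Tapbpl, a relative of tapasin, by -0.23 and -0.02. The 1 gene of these 23 at 2-fold or more was Cd1d1, a lipid-presenting relative of class I chains singled out after its values were seen, at -1.18 at ZT14 and -0.66 at ZT2.

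Class II genes differed among themselves. With vancomycin 3 of the 9 measured at ZT14 were 2-fold or more lower, where 2.88% of gene entries were. None was 2-fold or more higher, where 1.62% of gene entries were, and the median was -0.55. Of the 3, H2-Oa rests on a bound, described below. At ZT2, of 8, 1 was lower, where 3.89% of gene entries were, and 1 higher, where 1.98% were. The median at ZT2 was -0.28. The difference between the class I and class II medians was not tested. H2-Ab1, the A beta chain, had 3.43 with vancomycin and 3.82 with saline at ZT14, and 2.90 with vancomycin and 3.62 with saline at ZT2. All 4 of its probes were lower with vancomycin at both times, by 0.34 to 0.48 at ZT14 and by 0.72 to 1.01 at ZT2. H2-Aa, the partner chain, had -2.53 with vancomycin and -0.25 with saline at ZT14, and -0.53 with vancomycin and -0.66 with saline at ZT2. Its 4.86-fold lower signal with vancomycin at ZT14 thus did not go with a like difference of H2-Ab1, and it rests on 1 probe, shown here because no other probe could be set beside it.
H2-Aa probe: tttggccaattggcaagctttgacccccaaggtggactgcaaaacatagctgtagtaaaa
It lies at chr17:34421285-34421344 of mm9, on the minus strand.

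H2-Eb1, the E beta chain, had 3.68 with vancomycin and 3.24 with saline at ZT14, and -1.13 with vancomycin and 3.11 with saline at ZT2. It was 18.9-fold lower on the vancomycin ZT2 array than on the saline ZT2 array, and the other 3 arrays lay between 3.11 and 3.68. H2-DMb1, the beta chain of the peptide exchange factor, had -3.85 with vancomycin and 0.95 with saline at ZT14, and 1.73 with vancomycin and 0.65 with saline at ZT2. It was 27.9-fold lower with vancomycin at ZT14 and 2.11-fold higher with vancomycin at ZT2, and after normexp correction the log2 difference at ZT14 was -3.65 in place of -4.80. In both genes 1 array stood apart while 3 lay together, and the array that stood apart was not the same one. Each rests on 1 measured probe, at chr17:34453075-34453134 for H2-Eb1 and chr17:34297109-34297168 for H2-DMb1, both on the plus strand of mm9. The second H2-DMb1 probe was not well above background on any array.

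The unscaled processed signals show the same. For H2-Eb1 they were 8373 and 6422 on the vancomycin and saline ZT14 arrays, and 224 and 4725 on the vancomycin and saline ZT2 arrays. For H2-DMb1 they were 45.0 and 1308 on the vancomycin and saline ZT14 arrays, and 1626 and 859 on the vancomycin and saline ZT2 arrays. A pattern of this kind, 1 array at least 2 log2 units from the nearest other, was met by 2 of the 39 genes and by 0.593% of 24640 gene entries. That rule was chosen after the values of these genes were seen. The partner of H2-DMb1, H2-DMa, had -2.58 with vancomycin and -2.03 with saline at ZT14, and -2.46 with vancomycin and -2.26 with saline at ZT2, a range of 0.55 over the 4 arrays.

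Cd74, the invariant chain, had 2.94 with vancomycin and 3.43 with saline at ZT14, and 2.73 with vancomycin and 3.32 with saline at ZT2. It was lower with vancomycin by 0.49 at ZT14 and 0.59 at ZT2, sizes close to those of H2-Ab1. Ciita, the master regulator of class II transcription, had -1.20 with vancomycin and -0.64 with saline at ZT14, and -0.72 with vancomycin and -0.55 with saline at ZT2. H2-Oa and H2-Ob form H2-DO, which holds back H2-DM. H2-Oa was not well above background on the vancomycin ZT14 array and was at least 2.35-fold lower there than on the saline ZT14 array. This bound takes the lowest signal well above background on the dim array as its floor, and after normexp correction the log2 difference was -0.29. H2-Ob was measured on the ZT14 arrays alone, at -5.30 with vancomycin and -4.84 with saline. H2-Ke6, which carries an H2- name but is not an MHC chain, differed by 0.04 at ZT14 and -0.11 at ZT2.

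Of 21 further listed symbols of the class II pathway, 19 were found and measured, with medians of -0.05 at ZT14 and 0.02 at ZT2 and 0 at 2-fold or more. The symbols not found, Marchf1 and Marchf8, are newer names of March1 and March8, which were measured. Ctss, the protease that trims the invariant chain, differed by -0.76 at ZT14 and -0.61 at ZT2. Ctsb, another lysosomal protease, differed by -0.16 and 0.01. The lists were drawn up with earlier results of these data known, so their counts are a description.

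Class II promoters carry a Y box, which holds the letters CCAAT and is bound by the factor NF-Y. The bases before the start sites of the 3 class II genes with the widest range over arrays are shown for that reason, in the direction of transcription, from RefSeq on the GRCm38.p6 build, with CCAAT or its reverse complement ATTGG in capitals.
H2-Aa upstream: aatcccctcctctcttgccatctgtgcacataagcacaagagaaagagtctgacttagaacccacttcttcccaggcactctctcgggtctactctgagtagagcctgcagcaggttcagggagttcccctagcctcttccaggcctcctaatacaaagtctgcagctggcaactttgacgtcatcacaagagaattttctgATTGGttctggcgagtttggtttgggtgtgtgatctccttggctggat
H2-Eb1 upstream: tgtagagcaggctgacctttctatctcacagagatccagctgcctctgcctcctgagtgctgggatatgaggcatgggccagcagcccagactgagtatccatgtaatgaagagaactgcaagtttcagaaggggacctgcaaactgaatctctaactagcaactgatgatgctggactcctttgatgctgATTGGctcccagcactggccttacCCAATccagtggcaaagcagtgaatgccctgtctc
H2-DMb1 upstream: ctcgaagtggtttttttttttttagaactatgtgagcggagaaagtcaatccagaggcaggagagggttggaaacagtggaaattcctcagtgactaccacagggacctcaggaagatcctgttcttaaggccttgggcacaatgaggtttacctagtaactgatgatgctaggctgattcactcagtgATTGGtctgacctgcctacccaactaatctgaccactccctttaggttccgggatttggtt
They lie at chr17:34287824-34288073 on the minus strand, chr17:34305617-34305866 on the plus strand and chr17:34152941-34153190 on the plus strand. The motif was searched on both strands over 300 bases, 250 before and 50 after each start. It was present in 33 of 39 promoters of the MHC and antigen processing genes, 84.6%, against 37.4% of all 32851 promoters. By gene, a gene with several promoters counted if any held the motif. The motif was found in 8 of 8 class II genes with a listed promoter. H2-Ab1, Cd74, Ciita and H2-Ea-ps had no listed promoter. Among the 8, H2-DMb2 and H2-Eb2 were not measured on any array, and 1 of the 2 H2-DMa promoters held no match. Of class I chains and class I pathway genes, 22 of 27 held the motif. A match is a description of the sequence and need not be a Y box. H2-Aa, H2-Eb1 and H2-DMb1 all carry a match, as do the other class II genes with a listed promoter. What part the motif had in the array values of these genes was not tested.

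Because the mice were outbred, probes of 1 gene were set side by side for patterns in which 1 probe is on and off between arrays while another is flat. The rule asked for a probe well above background on some arrays and not on others with a range of at least 2 log2 units, beside a probe of the same gene measured on all 4 arrays with a range under 1. Of the 24 genes with 2 or more probes, 2 met it, H2-Q10 and H2-M2, against 0.48% of 11876 gene entries with 2 or more probes. After normexp correction the number was 0 of these genes.

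H2-Q10 had 4 probes, of which the 2 shown here lie toward the 5′ side of the gene and were measured on all arrays. They are shown because they keep 1 direction at ZT14 while the other pair goes the opposite way.
H2-Q10 probe at chr17:35607907-35607966: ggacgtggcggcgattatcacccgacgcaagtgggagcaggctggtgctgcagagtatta
H2-Q10 probe at chr17:35610036-35610095: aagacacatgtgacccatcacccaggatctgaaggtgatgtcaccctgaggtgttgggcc
These probes differed by -1.02 and -0.73 between vancomycin and saline at ZT14. The other pair, at chr17:35611365-35611424 and chr17:35611449-35611508, differed by 1.32 and 2.12 at ZT14. The last of them had -2.64 with vancomycin and -4.76 with saline at ZT14 and was not well above background on either ZT2 array. All 4 map to the plus strand of mm9. The 4 H2-Q10 probes therefore split by position, and a single value for the gene hides that split.

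H2-M2 had 2 probes. The brighter one, at chr17:37618259-37618439 over a span of 181 bases, had 0.42 with vancomycin and 1.34 with saline at ZT14, and 0.51 with vancomycin and 0.60 with saline at ZT2. The other, at chr17:37618042-37618101 on the same minus strand, had -4.28 with vancomycin and -4.52 with saline at ZT14, was not well above background on the vancomycin ZT2 array and had -3.41 on the saline ZT2 array. It was the vancomycin ZT2 array, not the ZT14 arrays, that set the second probe apart.

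H2-Bl showed a further disagreement, outside the on-off rule because both of its probes were measured on all arrays. The first had -1.51 with vancomycin and -0.87 with saline at ZT14, and -2.11 with vancomycin and -1.50 with saline at ZT2. The second had -2.14 with vancomycin and -0.91 with saline at ZT14, and -1.62 with vancomycin and -3.67 with saline at ZT2. Both probes were lower with vancomycin at ZT14, while at ZT2 the first differed by -0.61 and the second by 2.04.

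**Figure D3:**
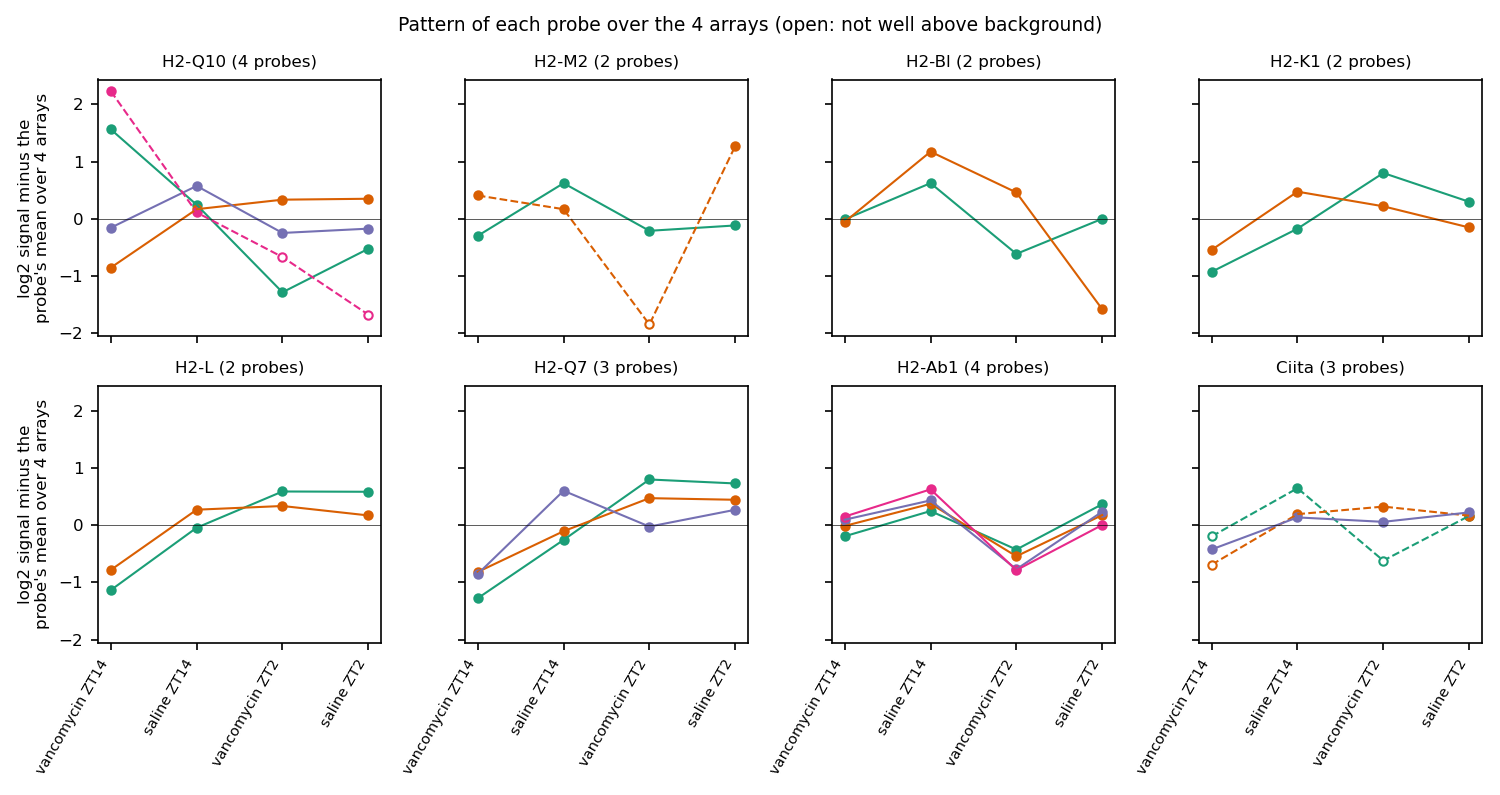
Log2 signal of each probe minus its own mean over the 4 arrays (y axis) on each array (x axis, n = 1 per group), for 8 genes with 2 or more probes measured on at least 1 array, 1 line per probe. Open points were not well above background, and a dashed line marks a probe with such a point. Lines of the 4 H2-Ab1 probes lie lower with vancomycin than with saline at both times. Those of H2-Q10 cross, with vancomycin minus saline differences of -1.02 and 2.12 at ZT14.

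H2-Ab1 was a case in which all probes kept 1 direction at both times. A pair of its probes overlap by 51 bases and differ at 1 base, T51C, counted from the 5′ end of the first probe, at which the second has the other base. The stretch around it is shown with that base in capitals.
H2-Ab1 first probe, stretch: acaaataaacgagacTcagactctg
H2-Ab1 second probe, stretch: acaaataaacgagacCcagactctg
The first differed by -0.39 at ZT14 and -0.72 at ZT2 between vancomycin and saline, and the second by -0.34 and -1.01. Both probes were lower with vancomycin at both times. The first minus the second was 0.03 and 0.08 on the vancomycin and saline ZT14 arrays. On the vancomycin and saline ZT2 arrays it was 0.37 and 0.08. The vancomycin ZT2 array thus set the pair apart, and the saline ZT2 array did not. Over all 12 genes with 2 or more measured probes, the probes of 1 gene spread over a median of 0.25 at ZT14 and 0.30 at ZT2. The spread was over 1 in 3 of 12 genes at ZT14, against 4.22% of gene entries, and in 1 of 12 at ZT2, against 4.92%.

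Across both injection times, limma was fitted to all 4 arrays with a term for treatment and a term for time, which leaves 1 residual degree of freedom. No gene entry passed an adjusted p of 0.05 for vancomycin against saline, 0.0% of 24640, and 0 of the 39 MHC and antigen processing genes did in limma. The smallest adjusted p among the 39 was 0.52, and 5 of them had an unadjusted p under 0.05 in limma, against 8.55% of gene entries. These 5, all lower with vancomycin, were Cd74 at -0.54 ± 0.14, H2-Ab1 at -0.55 ± 0.17, H2-Bl at -0.62 ± 0.14, Nlrc5 at -0.64 ± 0.14 and H2-M11 at -1.31 ± 0.24 (log2 difference ± SE, 2 arrays per treatment). H2-M11 was well above background on the saline ZT14 array alone. The genes with the widest differences at 1 time, H2-DMb1 and H2-Eb1, were not among them. Their differences disagreed between the times, which this fit counts as error. In all, 14 of the 37 genes measured at both times were below 0 at both, where 28.4% of gene entries were. None of the 37 was 2-fold or more lower at both times, where 1.17% of gene entries were, or higher at both, where 0.27% were.

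Between injection times, the class I chains were lower at ZT14 than at ZT2 with vancomycin and not as a group with saline. With vancomycin 10 of 20 were 2-fold or more lower at ZT14, where 3.27% of gene entries were, and 0 were higher, where 9.43% were, with a median of -1.05. With saline 1 of 21 was 2-fold or more lower, where 3.48% of gene entries were, and 4 were higher, where 8.4% were, with a median of -0.01. The vancomycin ZT14 array enters both this and the treatment comparison at ZT14, so the 2 counts of 10 are not separate evidence. H2-D1 differed by -2.15 with vancomycin and by -1.07 with saline. H2-T9 and H2-T24 went the other way with saline, at 2.01 and 1.79.

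H2-Eb1 differed between times by 4.82 with vancomycin and 0.13 with saline, and H2-DMb1 by -5.58 with vancomycin and 0.30 with saline. Psmb10 was higher at ZT14 under both treatments, by 1.24 with vancomycin and 0.97 with saline. In limma 0 of the 39 genes and 0.0% of gene entries passed for time, 5 of the 39 had an unadjusted p under 0.05 against 27.2% of gene entries, and Psmb10 had the smallest adjusted p of the 39, 0.0972 in limma. Normexp correction gave 3 genes past an adjusted p of 0.05 in limma, and 3 other settings gave 1.

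Class II molecules mark antigen-presenting cells, and in whole tissue fewer such cells and less RNA per cell cannot be told apart. All 8 markers of the proximal tubule, the main tubule segment of the kidney cortex, were measured on every array, with medians of -0.10 at ZT14 and 0.11 at ZT2. Slc34a1 differed by 0.25 at ZT14 and 0.19 at ZT2 and Lrp2 by -0.13 and 0.31, while the 8 ranged from -0.82 to 0.25 at ZT14 and from -0.17 to 1.41 at ZT2, where 1, Slc22a8, was 2-fold or more higher. Of 9 dendritic cell markers 8 were measured, and Xcr1 was not well above background on any array. Their summed linear signal, in units of the 75th percentile, was 1.26 with vancomycin and 1.25 with saline at ZT14, and 0.778 with vancomycin and 1.20 with saline at ZT2. At ZT14 0 of 8 were 2-fold or more lower, where 2.88% of gene entries were. At ZT2 5 of 8 were, where 3.89% of gene entries were. These were Itgax, Flt3, Clec9a, Cd209a and Ccr7, of which the last 3 are named after their values were seen. Itgax differed by -0.50 at ZT14 and -1.30 at ZT2. The array with low dendritic cell markers was thus the one on which H2-Eb1 was low and H2-DMb1 was not; their part in the result was not tested.

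Macrophage markers, 12 of 13 found and measured, had a median of -0.47 at both times, and 9 of 12 were below 0 at both. Their summed signal was 20.6 with vancomycin and 25.6 with saline at ZT14, and 22.7 with vancomycin and 23.6 with saline at ZT2. Csf1r led this sum, at log2 3.61 with vancomycin and 3.81 with saline at ZT14, and 3.71 and 3.28 at ZT2. At ZT2 10 of the 12 markers were below 0, and Csf1r was not. Adgre1 differed by -0.46 at ZT14 and -0.43 at ZT2, and Csf1r by -0.20 and 0.43. Of 9 B cell markers 6 were measured, and Cd79a, Blk and Fcrla were not above background on any array. The measured markers had a median of -0.15 at ZT14, where 5 of 5 were below 0, and 0.06 at ZT2, where 3 were below and 3 above 0. Cd79b, a part of the B cell receptor and the one marker of the list at 2-fold or more lower at both times, differed by -1.14 at ZT14 and -1.70 at ZT2. The summed B cell signal was 1.51 with vancomycin and 1.74 with saline at ZT14, and 1.66 with vancomycin and 1.49 with saline at ZT2. Cd22 led this sum and differed by -0.07 at ZT14 and 0.48 at ZT2. Cd74, H2-Ab1 and 9 of the 12 macrophage markers were thus lower with vancomycin at both times, while the B cell markers were split at ZT2, and what part these cells had in the class II values was not tested.

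T and NK cell markers were below 0 at both times in 11 of 11, where 28.4% of gene entries were. Their medians were -0.75 at ZT14 and -0.87 at ZT2, and Klrb1c was at least 2-fold lower at both. The summed T and NK cell signal was 4.89 with vancomycin and 5.90 with saline at ZT14, and 1.98 with vancomycin and 2.69 with saline at ZT2. Cd4 led this sum, at log2 1.73 with vancomycin and 1.88 with saline at ZT14, and 0.03 and 0.23 at ZT2. All 10 endothelial markers were also below 0 at both times, where 28.4% of gene entries were, with medians of -0.31 and -0.35. Pecam1 differed by -0.08 and -0.31 and Cdh5 by -0.24 and -0.35. Their summed signal was 37.9 with vancomycin and 48.8 with saline at ZT14, and 29.0 with vancomycin and 37.4 with saline at ZT2. The endothelial and the T and NK cell markers lay below 0 at both times. The class I chains had medians of -0.96 at ZT14 and 0.12 at ZT2. What part these cells had in the class I values was not tested.

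Interferons are known to raise both MHC classes. Of 21 interferon response genes, 0 of 20 measured at ZT14 were 2-fold or more apart, with a median of -0.22. At ZT2 2 of 21 were 2-fold or more lower, where 3.89% of gene entries were, with a median of -0.06. These 2, Isg15 and Cxcl9, are named after their values were seen. Irf7 differed by -0.61 at ZT14 and -0.88 at ZT2, and Irf9 by 0.32 and 0.15. The summed signal of the list was 18.02 with vancomycin and 19.8 with saline at ZT14, and 16.8 with vancomycin and 18.7 with saline at ZT2.

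**Figure D4:**
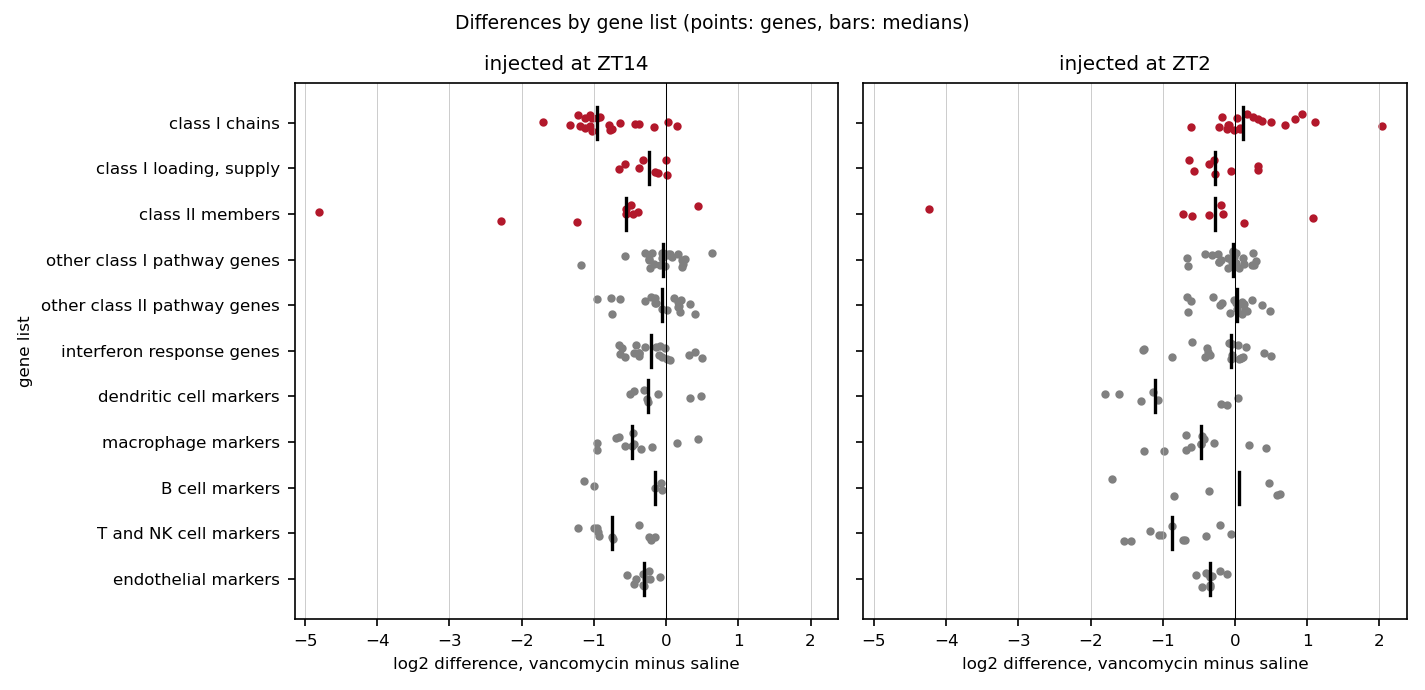
Vancomycin minus saline log2 difference at ZT14 and at ZT2 for each list, with 1 point per gene and a bar at the list's median (1 array against 1 array), MHC lists in red and other lists in grey. The class I chains have a median of -0.96 at ZT14 and 0.12 at ZT2, and the T and NK cell markers -0.75 and -0.87.

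Markers of tissue around the kidney also moved with the groups. Of 10 adrenal markers, 7 were 2-fold or more higher with vancomycin at ZT14 and 7 at ZT2, with a summed signal of 1.42 with vancomycin and 0.733 with saline at ZT14, and 7.64 with vancomycin and 0.682 with saline at ZT2. Of all gene entries, 1.62% were 2-fold or more higher at ZT14 and 1.98% at ZT2, and 3.89% were 2-fold or more lower at ZT2. Chgb, Chga, Cyp11b1 and Cyp21a1 were 2-fold or more higher at both times. Erythroid markers had a summed signal of 47.2 with vancomycin and 38.3 with saline at ZT14, and 12.1 with vancomycin and 37.5 with saline at ZT2, a sum led by the globins. Hba-a1 differed by 0.31 at ZT14 and -2.09 at ZT2, and Hbb-b1 by 0.02 and -1.88. At ZT2 4 of the 6 measured erythroid markers were 2-fold or more lower and 1, Klf1, was higher, at 2.78. Adipose markers had a summed signal of 10.5 with vancomycin and 8.99 with saline at ZT14, and 15.4 with vancomycin and 27.3 with saline at ZT2. Fabp4 led this sum and differed by 0.24 at ZT14 and -0.77 at ZT2. At ZT2 4 of the 8 adipose markers were 2-fold or more lower, Adipoq at -1.64 and Cidec at -1.74 among them, and 2 were 2-fold or more higher, Cidea and Ucp1. The vancomycin ZT2 array, on which H2-Eb1 was low, was thus also the one with the highest summed adrenal and the lowest summed erythroid signal. The part of these tissues in the values of the MHC genes was not tested.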

How the data were processed

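Total RNA from mouse kidney was labelled with Cy3 and hybridised to 1-colour Agilent arrays. The deposited intensity values are scanner output of Feature Extraction 10.7.1.1 with probes placed on mm9, per the file headers, while 9.5.1.1 stands in the submitters' processing notes. The authors' deposited value table holds linear intensity with the same quantiles on every array and served as an alternative. Log2 of the background-subtracted processed signal was taken relative to the 75th percentile of the same array. Spots of a probe were averaged, control spots were left out, and a gene was given by its brightest probe well above background on at least 1 array, which gave 24640 gene entries. Of the 52 names, 49 were found in the RefSeq table.

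Differences between single arrays were read with a 2-fold rule and no test. limma 3.58.1 in R 4.3.3 (Python 3.11.15 for the rest) was fitted over all gene entries with Benjamini-Hochberg adjustment. It was also run on simulated data with changes equal at both injection times. That run does not cover differences that disagree between the times. With 4 arrays, their number limits the precision. The p-values rest on 1 residual degree of freedom, the disagreement of the treatment difference between the injection times. To this limma adds a prior drawn from all gene entries, worth 1.86 degrees of freedom. They do not measure the spread between animals of a group. Named from the MHC set were genes at 2-fold or more at either time, classical class I genes, class II chains and the non-H2 genes, and from other lists genes at 2-fold or more in 1 direction at both times, at most 4, or else the first 2. The members and lists were chosen with earlier results of these data known. Alternatives were other centring, background correction, probe choice, filters, a pseudocount, other priors and the authors' values.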

Additional observations from a re-analysis of the deposited data

Results flagged for a closer look

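H2-DMb1 stood out because its difference between vancomycin and saline went in opposite directions at the injection times. The log2 difference was -4.80 at ZT14 and 1.08 at ZT2, each from 1 array against 1 array, and the difference between the times was not tested. It rests on 1 measured probe.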

How the results depend on the processing

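For vancomycin against saline over both times, 0 of the 39 genes passed in limma under every alternative run, with 1 to 7 genes at an unadjusted p under 0.05. For injection time the number of genes past an adjusted p of 0.05 in limma was 0, and it was 3 after normexp, 1 with a pseudocount of 16, 1 with probes above background on all arrays and 1 when limma's prior was robust and followed intensity. Over all gene entries that count was 0, and 3002, 1672, 1624 and 3394 under these 4 settings and 1013 with dim signals raised to a floor. The number of genes 2-fold or more lower at ZT14 was 13, and 8 after normexp. At ZT2 it was 1, 2 with no filter on dim probes and 3 with the mean over probes. The class I chain median at ZT14 was -0.96, and -0.75 both after normexp and with no filter. The class II median at ZT2 was -0.28, and -0.10 after normexp. Counting class I probes with shared sequence once, chosen after seeing the data, gave 6 in place of 10 chains lower at ZT14. H2-D1 and H2-L still counted apart in it. Genes with an on-off probe numbered 2, 1 with a range of at least 3 and 0 after normexp. H2-Q10 at ZT14 was -1.02, and 0.42 with the mean over probes, whose probes disagree. Of 430 single gene differences under alternatives, 404 stayed close to their value, 25 moved and 1 changed sign. Apart from the narrower probe sets, the causes were not tested. No paired analysis was possible because by replicate number each group has 1 array, which also leaves none to leave out. The injection time term of the limma fit already sets vancomycin beside saline within each slide, and without it 0 genes passed in limma and 1 had an unadjusted p under 0.05. Dim probes limit the low class I and class II genes.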
